A study of Danio rerio with 2 samples.

Results

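Broad accessible blocks were taken as the ATAC-seq peaks wider than 5 kb with a score under 10000 on zebrafish chromosomes 1 to 25, chromosome 4 left out. There were 638 of them, out of 77524 peaks on these 24 chromosomes and 84715 in the whole list. The members were chosen by their width and score, so both are given as a description. The peaks came from untreated wild-type Tubingen embryos at 4 hpf, with 2 replicates prepared from about 300 whole embryos per tube. Reads of 30 to 120 bp fragments from both replicates were called by the authors as 1 pooled list, so a peak has no value per replicate, no spread between replicates can be given, and no test across samples was possible. Every comparison below is therefore a description of 1 list. For some comparisons, the number of chromosomes on which they held is given. Chromosomes share the same libraries and peak calling, so these counts do not measure replicate error. Each peak carries 1 score from the authors' peak caller, whose scale is not named, and read depth is unknown. A whole embryo at this stage holds several cell populations, and the list does not tell them apart.

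ATAC-seq uses a transposase that cuts and tags DNA where chromatin is open, and fragments shorter than a nucleosome's DNA mark the places where nucleosomes are missing. In the zebrafish embryo, the stage studied here follows the start of zygotic transcription, when promoters and enhancers become accessible. Such elements are usually short, and most peaks of the list were short as well, with a median width of 730 bp on these chromosomes. Peaks of 500 to 1000 bp, 56914 in number, serve below as the comparison and are called short peaks.

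Broad blocks made up 0.824% of the 77381 peaks scoring under 10000, a share that the rule itself fixes. They covered 4.56 Mb, which was 5.90% of the length under all peaks and 0.361% of the length of these chromosomes up to their last peak. They held 1.76% of the summed score of all peaks. The rule bounds this share too, since it kept each block under 10000 while other peaks reached 988923. Each peak adds 1 score of unnamed scale whatever its width, so the sum is not read as an amount of signal. Their median width was 5765 bp, the middle 50% lay between 5370 and 6460 bp, and the widest was 68450 bp. Most blocks were therefore only a little wider than the limit, and 417 of the 638, or 65.4%, were at most 6 kb wide. Only 38 were over 12 kb and 17 over 20 kb.

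Scores within the blocks were spread over a wide range, from 84 to 9763, with a median of 222. Short peaks had a median score of 107. The blocks did not fill this range evenly, and they are described below in 3 score classes that were chosen after the values were seen. Blocks scoring under 300 numbered 354 (55.5%), of which 280 scored from 100 to under 200. Blocks scoring 300 to under 1000 numbered 104 (16.3%). Blocks scoring 1000 or more numbered 180 (28.2%), and their median score was 2426.

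The limits of the rule cut through continuous ranges. The 36 blocks just inside the width limit, of 5010 to 5100 bp, had a median score of 204, and the 32 peaks just outside it, of 4910 to 5000 bp, one of 175. At the score limit, the highest block scored 9763 and the lowest excluded peak over 5 kb scored 10101. The 76 peaks over 5 kb that were left out for their score had a median of 64502.

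Width and score went together across all 638 blocks, with a Spearman's rho of 0.486, given as a description since peaks of 1 list share their libraries and both values chose the members. Blocks of over 5 to 6 kb, 417 in number, had a median score of 176. Blocks of over 6 to 8 kb (n = 139) had a median of 646, and those of over 8 to 12 kb (n = 44) a median of 1522. The 38 blocks over 12 kb had the highest median, 3634, and 34 of them scored 1000 or more. The upper score limit of the selection bounds this median, which was 11884 without that limit and 2310.5 with chromosome 4 included. Score divided by width was also higher above 6 kb than below it. Its median was 31.8 per kb in the narrowest class, 93.9 per kb over 6 to 8 kb, 176 per kb over 8 to 12 kb and 167 per kb over 12 kb. Short peaks had a median of 164 per kb and all peaks one of 160 per kb. The 2 widest classes were thus near ordinary peaks, and blocks of over 5 to 8 kb lay below them. A peak carries 1 score whatever its width, so this quotient is not read as a density of signal. Within the score classes rho was 0.0875 among blocks scoring under 300, 0.137 among those scoring 300 to under 1000 and 0.219 among those scoring 1000 or more. These classes are cut on score, so their lower rho can follow from the split itself.

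**Figure D1:**
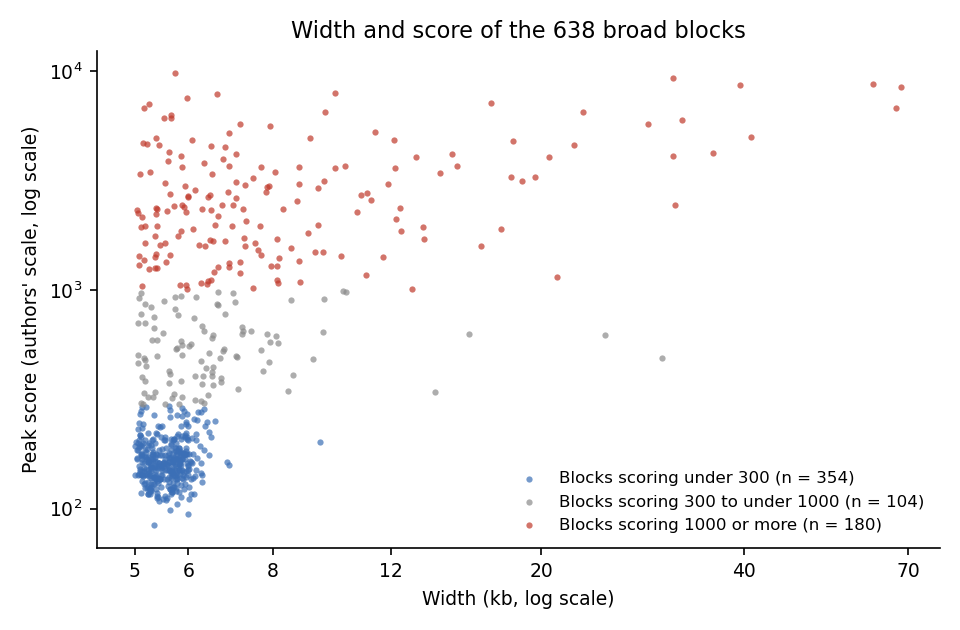
Each point is 1 of the 638 broad blocks, with its width in kb on the x axis and its score on the authors' scale on the y axis, both axes logarithmic, coloured by score class. The 354 blocks scoring under 300 form a compact cloud, nearly all of it between 5 and 7 kb, while the blocks scoring 1000 or more reach 68.45 kb.

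The low-scoring blocks were uniform in width. Of the 354 blocks scoring under 300, 316, or 89.3%, were at most 6000 bp wide, 38 were wider than that and only 1 was over 7000 bp. Their middle 50% lay between 5282.5 and 5840 bp. Blocks scoring 1000 or more had a median width of 7025 bp, their middle 50% lay between 5857.5 and 9890 bp, and 124 of the 180, or 68.9%, were over 6000 bp.

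The drop near 6 kb was also seen when peaks below the 5 kb limit were counted. Peaks scoring under 300 numbered 489 at over 3 to 4 kb, 328 at over 4 to 5 kb, 316 at over 5 to 6 kb, 37 at over 6 to 7 kb and 0 at over 7 to 8 kb. Their number thus hardly changed across the 5 kb limit and then dropped at 6 kb. In bins of 100 bp there were 30 such peaks at over 5900 to 6000 bp, 12 in the next bin and 8 in the one after. Peaks scoring 1000 to under 10000 numbered 195, 74, 56, 34 and 23 in the same 5 classes of 1 kb. Their bins of 100 bp were uneven as well, with 21 and 2 peaks on either side of 4 kb and 8 and 2 on either side of 6 kb. Peaks scoring 300 to under 1000 numbered 187, 78, 45, 32 and 13. The share of low-scoring peaks was accordingly 75.8% at over 5 to 6 kb and 35.9% at over 6 to 7 kb.

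**Figure D2:**
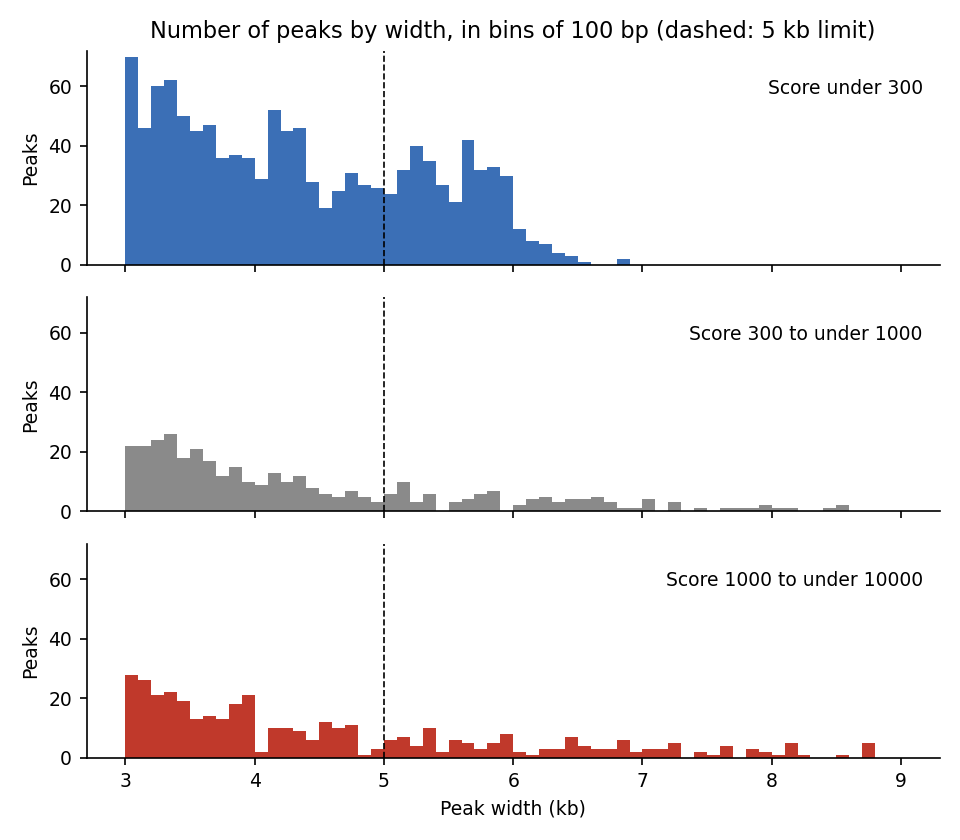
Number of peaks scoring under 10000 in width bins of 100 bp between 3 and 9 kb, in 3 panels by score, with peak width in kb on the x axis and the dashed line at the 5 kb limit. Peaks scoring under 300 stay frequent up to 6 kb, with 30 in the last bin below it and 12 in the first bin above it. Peaks scoring 1000 or more number 8 and 2 in the same bins.

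Broad blocks were found on all 24 chromosomes, but in unequal number. Chromosome 12 had the most, 50, and chromosome 10 the fewest, 7, with a median of 25 over the 24 chromosomes. Per Mb of chromosome up to the last peak, blocks ranged from 0.154 on chromosome 10 to 1.02 on chromosome 12, with a median of 0.450. As a share of the peaks of a chromosome, blocks ranged from 0.346% on chromosome 10 to 1.77% on chromosome 25. Chromosome 12 had 1.36%. The score classes did not share this distribution. Chromosomes 1, 9, 12 and 18 held 25, 32, 34 and 32 blocks scoring under 300, together 123 of the 354. Of the 77524 peaks of any width, these chromosomes held 3602, 4546, 3683 and 3910. Chromosomes 7, 8 and 25 held 21, 22 and 24 blocks scoring 1000 or more, together 67 of the 180. Their peaks of any width numbered 4567, 2394 and 2037. Many of these high-scoring blocks lay close together, so the counts do not describe whole chromosomes. On chromosome 8, 19 of the 28 blocks of any score lay in 2 groups described below. Chromosome 25 had groups of 6 and of 5 blocks, none scoring under 2744. Chromosome 8 had only 3 low-scoring blocks beside its 22 high-scoring ones, while chromosome 9 had 32 beside 2. Low-scoring blocks outnumbered high-scoring ones on 19 of the 24 chromosomes and were outnumbered on 3.

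**Figure D3:**
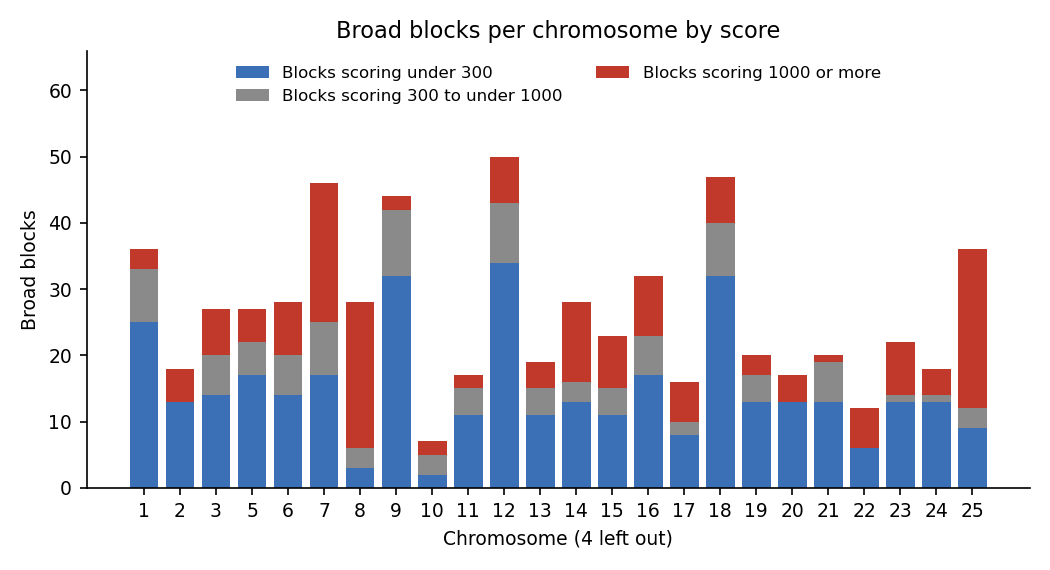
Number of broad blocks on each of the 24 chromosomes (y axis), stacked by score class. Chromosomes 7, 8 and 25 carry the most blocks scoring 1000 or more (21, 22 and 24), and chromosomes 9, 12 and 18 the most scoring under 300 (32, 34 and 32).

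The surroundings of each block were measured by counting the summits of other peaks within 50 kb of its edges, on both sides together. Over all 638 blocks the median was 9 other peaks (95% order-statistic interval 8 to 9, which treats blocks as independent), against 8 for short peaks. This difference was small and did not hold up by chromosome, as the median of blocks was higher than that of short peaks on 11 of the 24 chromosomes, equal on 5 and lower on 8. With blocks scoring under 5000 only, or with 1 block per run of neighbours, the difference of the medians was 0. With a width limit of 7500 bp, which left 97 blocks and only 1 of them scoring under 300, the median was 18. Both sides were alike, with a median of 4 peaks on either side. For 10 blocks the count was cut short by the end of the listed sequence.

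The near-equal medians covered classes with unlike surroundings. Blocks scoring under 300 had a median of 6 other peaks within 50 kb (interval 5 to 6), those scoring 300 to under 1000 a median of 12 (interval 9 to 15) and those scoring 1000 or more a median of 18.5 (interval 17 to 20). Short peaks of the same score classes had medians of 8, 8 and 10. Low-scoring blocks thus lay in sparser surroundings than short peaks of the same score class, and high-scoring blocks in denser ones. Scores were not matched within a class, with medians of 162, 528 and 2426 for blocks and 93, 477 and 1285 for short peaks. By chromosome, the median of low-scoring blocks lay below that of all short peaks on 19 of 24, was equal on 4 and lay above it on 1, chromosome 10, which had 2 such blocks. The median of high-scoring blocks lay above that of short peaks on 24 of 24 chromosomes and above that of low-scoring blocks on the same number. It ranged from 9 to 27, against 6 to 9 for short peaks. Some of these medians rest on very few blocks, since 4 chromosomes had 1 or 2 high-scoring blocks and the value of 27, on chromosome 21, came from 1 block. On the 15 chromosomes with at least 5 such blocks, a limit also chosen after seeing the data, it ranged from 13 to 23 and lay above that of short peaks on all 15. Beyond 1 Mb from chromosome ends, the medians were 6 for low-scoring blocks and 17 for high-scoring blocks, against 7 for short peaks.

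The difference was also seen next to the edge. In the first 5 kb outside a block scoring under 300 there were 0.435 other peaks per 10 kb, fewer than the 0.627 to 0.724 found in each further step of 5 kb up to 50 kb. Around blocks scoring 1000 or more the density was 2.42 per 10 kb in the first 5 kb and 1.44 at 45 to 50 kb. Around short peaks it was 1.02 and 0.823 per 10 kb at the same distances. Density therefore fell with distance from high-scoring blocks and short peaks, and was lowest beside low-scoring blocks. Windows that ran past the listed sequence were left out of these densities.

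**Figure D4:**
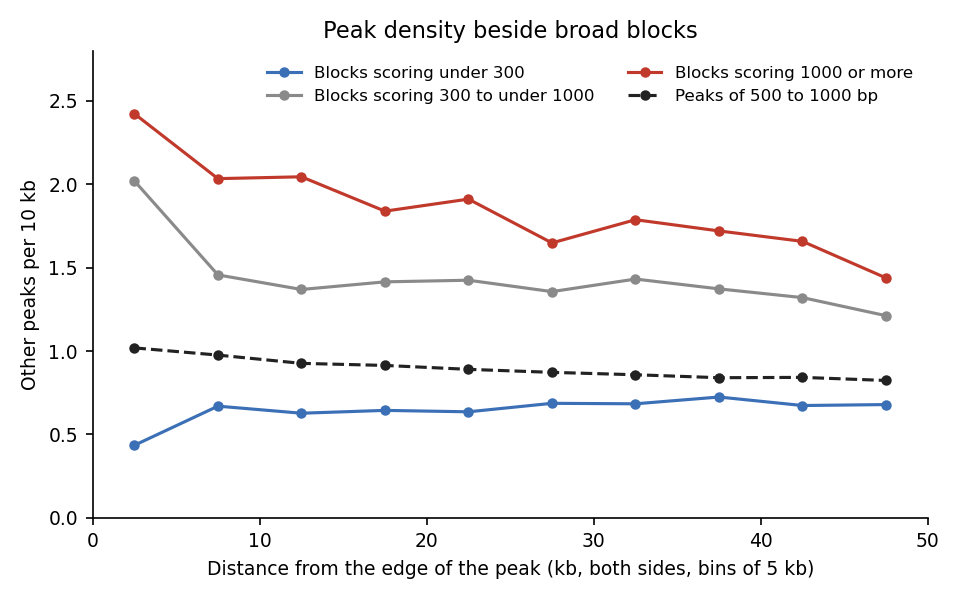
Density of other peaks (summits per 10 kb, y axis) by distance from the edge of the peak (kb, x axis, both sides together, steps of 5 kb), for 3 score classes of blocks and for short peaks (dashed). Blocks scoring under 300 lie below short peaks at every distance shown, and blocks scoring 300 or more above them.

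The nearest other peak gave the same order. The median gap between a block and its nearest peak was 7460 bp for blocks scoring under 300, 730 bp for those scoring 300 to under 1000 and 375 bp for those scoring 1000 or more, against 3200 bp for short peaks. Another peak within 1 kb was found for 239 of the 638 blocks, or 37.5%, against 23.7% of short peaks and 28.5% of all peaks. The share was 9.60% for blocks scoring under 300, 59.6% for those scoring 300 to under 1000 and 79.4% for those scoring 1000 or more. Short peaks of the same score classes had 22.7%, 26.9% and 36.4%, and median gaps of 3400, 2510 and 1700 bp. Many high-scoring blocks were thus separated from the next peak by a short unlisted stretch, and 62 of the 180, or 34.4%, had such a neighbour on both sides. This was so for 3.09% of short peaks, 4.68% of short peaks scoring 1000 to under 10000 and 4.52% of all peaks. The smallest gap of any block was 260 bp. A gap of at most 300 bp was found for 90 of the 638 blocks. It was not counted for other peaks, so the 90 are not read as an excess. Whether such blocks are parts of a longer accessible stretch was not tested.

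At the other extreme, 15 blocks, or 2.35%, had no summit of another peak within 50 kb on either side. This was so for 1.62% of short peaks and 1.4% of all peaks. Of the 15 blocks, 13 scored under 300, 2 scored 300 to under 1000 and 0 scored 1000 or more. The widest lay on chromosome 7 at 7630111-7637190 (7.08 kb, score 493), with its nearest peak 65740 bp away. The next were on chromosome 18 at 14109351-14115420 (6.07 kb, score 210), on chromosome 7 at 36875221-36881100 (5.88 kb, score 503), on chromosome 14 at 10839151-10844910 (5.76 kb, score 177) and on chromosome 21 at 39980301-39986010 (5.71 kb, score 170). These coordinates and all others are those of Zv10, counted from 1, and no annotation of that build was used, so the genes at these places are not given.

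Peaks found around the blocks also differed between the classes. The 2202 peaks within 50 kb of low-scoring blocks had a median score of 119 and a median width of 760 bp, and 3.50% of them scored 1000 or more. The 2150 peaks within 50 kb of high-scoring blocks had a median score of 216 and a median width of 970 bp, and 19.4% scored 1000 or more. Among all peaks these values were 129, 730 bp and 5.26%. Some of these peaks were broad blocks themselves and so were chosen by width and score: 38 of those around low-scoring blocks, 118 of those around high-scoring blocks and 638 of all 77524. Without them, an alternative chosen after seeing the data, the peaks around low-scoring blocks had a median score of 117 and a median width of 750 bp, and 3.42% scored 1000 or more. Those around high-scoring blocks then had medians of 196 and 925 bp, with 15.7% scoring 1000 or more, against 128, 730 bp and 5.07% among all peaks that were not broad blocks. The 76 peaks over 5 kb that were left out of the blocks for their score were not removed here.

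Broad blocks were next to each other more often than a short peak was next to one. A run was defined as broad blocks with no other peak between them. A broad block was the previous or the next peak for 73 of 638 blocks, or 11.4%, against 1.36% of short peaks and 1.61% of all peaks. The share was 5.93% for blocks scoring under 300 and 25% for those scoring 1000 or more. Chromosome 8 held 10 of the 73 blocks, and chromosomes 1, 5, 10, 11, 16, 19, 20 and 22 held none. Runs were short, with 32 of 2 blocks and 3 of 3 blocks, and 565 blocks stood outside any run. Of the 35 runs, 21 consisted of blocks scoring 1000 or more, 9 of blocks scoring under 300 and 5 of other combinations. Gaps within the runs of high-scoring blocks had a median of 330 bp, and within the runs of low-scoring blocks one of 7040 bp, with a largest of 65860 bp. A low-scoring run was thus often only a pair of blocks with nothing listed between them.

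The runs of 3 lay on chromosomes 18, 25 and 21. On chromosome 25 at 34626851-34654240, blocks of 5.88, 8.75 and 12.09 kb with scores of 3640, 3640 and 4827 were separated by 340 and 330 bp and filled 97.6% of 27.39 kb. On chromosome 18 at 30056971-30093160, blocks of 5.98, 9.89 and 7.93 kb scored 7495, 7961 and 5621, with gaps of 5420 and 6970 bp. On chromosome 21 at 45813811-45836420, blocks of 9.54, 5.33 and 5.73 kb scored 905, 267 and 927. Among the pairs, the longest span was that on chromosome 24 at 12299341-12398580, where blocks of 67.23 and 31.62 kb lay 390 bp apart and filled 99.6% of 99.24 kb. The next longest, also on chromosome 24, at 17749291-17825590, was of the other kind, with blocks of 5.04 and 5.4 kb that scored 169 and 176 and lay 65860 bp apart.

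When blocks with at most 50 kb between them were joined, whether or not other peaks lay between, they formed 514 groups. Of the 638 blocks, 446, or 69.9%, stood alone, and 106 lay in 25 groups of at least 3. None of these 25 groups consisted of blocks scoring under 300 alone, and 15 consisted of blocks scoring 1000 or more alone. Other peaks were not grouped in this way, so these numbers are not read as an excess. There were 6 groups of at least 5 blocks, with 43 blocks in all, and these were chosen after their values were seen. The largest, on chromosome 8 at 34515991-34786050, held 13 blocks among 52 peaks, scoring 472 to 6105, and peaks covered 74.0% of its 270.06 kb. A further group of 6 blocks lay nearby on chromosome 8 at 34986651-35109340, so these places held 19 of the 28 blocks of that chromosome. Chromosome 16 had a group of 7 blocks at 36225951-36447270, with scores of 703 to 8632. Chromosome 14 had one of 6 blocks at 44436341-44515850, where peaks covered 95.3% of the span. Chromosome 25 had groups of 6 blocks at 34559441-34654240 and of 5 at 35758181-35821400, none scoring under 2744. Blocks within a group share much of their surroundings, so they are not independent places.

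Chromosome ends held more broad blocks than their share of short peaks. The ends were taken as the first base and the end of the last peak of each chromosome. Within 0.5 Mb of an end lay 56 of the 638 blocks, or 8.78% (95% Wilson interval 6.82% to 11.2%, which covers counting error only and treats blocks as independent), against 3.84% of short peaks and 4.69% of all peaks. The share of blocks was above that of short peaks on 17 of 24 chromosomes, and the other 7 had no block there. The 17 are simply all chromosomes with any block there, and on chromosomes 2, 5, 8, 10 and 17 there was only 1. The near and far ends held 32 and 24 of the 56 blocks, and chromosome 21 had the most, 9 of its 20 blocks.

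This excess came from blocks scoring 300 or more. Only 4 of the 354 blocks scoring under 300, or 1.13% (0.440% to 2.87%), lay within 0.5 Mb of an end, on 3 chromosomes. The share was 25% (17.7% to 34.1%) for those scoring 300 to under 1000 and 14.4% (10.1% to 20.3%) for those scoring 1000 or more, on 14 chromosomes for these highest ones. Short peaks of the same score classes had 3.90%, 3.48% and 4.24% there. Low-scoring blocks were thus rarer at chromosome ends than short peaks of the same score class, and higher-scoring blocks more frequent. The excess was confined to the outermost part in these data, since only 2 blocks, or 0.313%, lay between 0.5 and 1 Mb of an end, against 2.50% of short peaks. Within 1 Mb the shares were 9.09% of blocks and 6.34% of short peaks. Peaks were dense around the blocks of the outermost part. Their median flank counts were 27 (score under 300, n = 4), 27 (300 to under 1000, n = 26) and 25.5 (1000 or more, n = 26). For 10 of these blocks the count was cut short by the end of the listed sequence. Flank counts of short peaks there are not given.

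The summit is the position of highest signal listed for each peak. It lay in the central 50% of the width in 342 of 638 blocks, or 53.6%, against 43.8% of short peaks and 45.4% of all peaks. The share was higher in blocks than in short peaks on 20 of 24 chromosomes. It was 56.5% for blocks scoring under 300, 47.1% for 300 to under 1000 and 51.7% for 1000 or more. Short peaks depended on score too, with 43.1% among those scoring under 300 and 55.7% among those scoring 1000 to under 10000. Set against short peaks of the same score class, the low-scoring blocks had more central summits, 56.5% against 43.1%. The other classes differed less, with 47.1% against 45.8% at 300 to under 1000 and 51.7% against 55.7% in the highest class. No interval was computed by class, so all of these differences are a description only, and the smaller ones are not read as real. Blocks also had higher median scores than short peaks within each class.

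Summits were placed almost evenly along the blocks. Each 10% of the width held 7.99% to 13.0% of the summits of the 638 blocks. Among short peaks of all scores together the outer parts were favoured, with 13.7% and 11.9% in the first and the last 10% of the width. Within 10% of the width from an edge lay 17.4% of block summits, against 25.3% of short-peak summits. This share was 12.7% in blocks scoring under 300, 24.0% in those scoring 300 to under 1000 and 22.8% in those scoring 1000 or more. Short peaks scoring under 300, 300 to under 1000 and 1000 to under 10000 had 28.5%, 10.4% and 4.24%. Against short peaks of the same score class, low-scoring blocks had fewer summits near an edge. Blocks scoring 300 or more had more. These shares by class are also without an interval. A broad block thus had no usual place for its summit, and the distance from the summit to the nearer edge had a median of 1585 bp and ranged from 25 to 18955 bp.

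**Figure D5:**
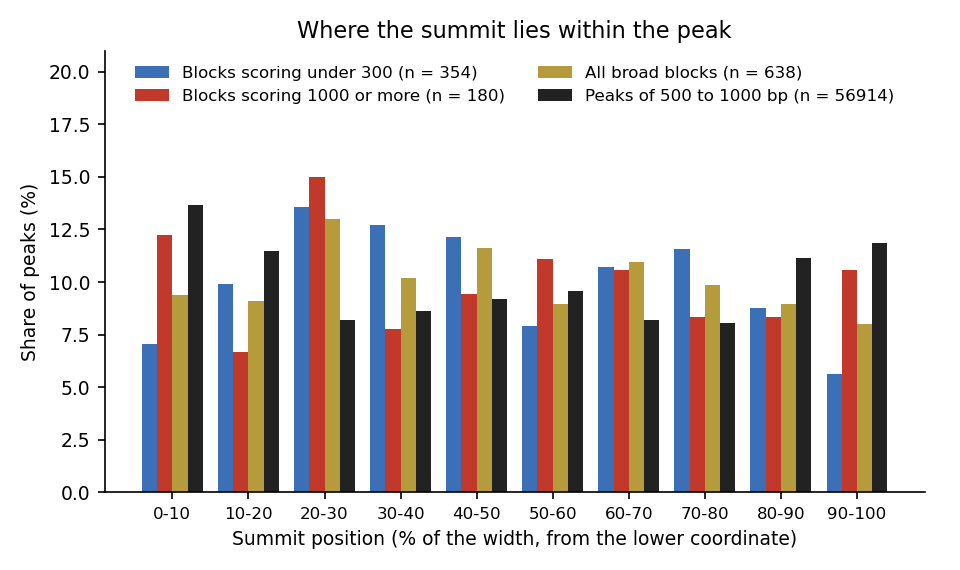
Share of summits (%, y axis) in each 10% of the peak's width, counted from the lower coordinate (x axis), for blocks scoring under 300, blocks scoring 1000 or more, all 638 blocks and the 56914 short peaks. Short peaks have 13.7% and 11.9% of summits in the outermost parts, where blocks have 9.40% and 7.99%.

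The 10 widest blocks were all in the class scoring 1000 or more. The widest, on chromosome 3 at 38870071-38938520 (68.45 kb, score 8424), had 26 other peaks within 50 kb, the nearest at 470 bp. The next lay on chromosome 24 at 12299341-12366570 (67.23 kb, score 6805) and on chromosome 12 at 14342201-14404320 (62.12 kb, score 8713). Those 3 stood apart from the rest, which were at most 41.02 kb. The others lay on chromosome 8 at 31641421-31682440 (41.02 kb, score 4981), chromosome 16 at 36383221-36422640 (39.42 kb, score 8632), chromosome 15 at 16536971-16573000 (36.03 kb, score 4244) and chromosome 17 at 23306131-23338500 (32.37 kb, score 5993). The last 3 were on chromosome 24 at 12366961-12398580 (31.62 kb, score 2443), chromosome 9 at 48437511-48468930 (31.42 kb, score 9345) and chromosome 25 at 26037321-26068710 (31.39 kb, score 4107). Each of the 10 had another peak within 1 kb on at least one side. Their summits could be far from the middle. In the block on chromosome 9 the summit lay 625 bp from the lower edge, and in that of 67.23 kb on chromosome 24 it lay 63335 bp along.

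The highest-scoring block was not among the widest. It lay on chromosome 20 at 3518901-3524630, was 5.73 kb wide, scored 9763 and had 2 other peaks within 50 kb, at 4830 bp and 6840 bp from its edges, unlike most blocks of its class. The next in score were those named above on chromosome 9 (9345), chromosome 12 (8713), chromosome 16 (8632) and chromosome 3 (8424). The lowest scores belonged to blocks on chromosome 16 at 18217671-18223000 (5.33 kb, score 84) and at 14248091-14254080 (5.99 kb, score 95). They were followed by blocks on chromosome 24 at 15419371-15425000 (5.63 kb, score 99), chromosome 17 at 19214831-19220600 (5.77 kb, score 105) and chromosome 5 at 46011681-46017100 (5.42 kb, score 108). These 5 were all under 6 kb wide, with 11, 4, 6, 1 and 4 other peaks within 50 kb. The one on chromosome 17 had no peak within 215290 bp on its lower side.

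The 638 blocks, at 0.824% of peaks scoring under 10000, can be set beside chromosome 4. There the same limits of width and score gave 128 broad peaks among 4679 peaks of any score, or 2.74%. These shares thus have unlike denominators. Blocks scoring under 300 were 55.5% of the 638, against 6 of the 128, or 4.69%, on chromosome 4. Median width was 5765 bp for the 638 blocks and 8145 bp on chromosome 4, and median score was 222 for the 638 blocks and 1077.5 on chromosome 4.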

How the data were processed

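ATAC-seq was performed by the authors on 2 replicates of 1 group, untreated wild-type embryos at 4 hpf. Per the authors' methods and notes, reads were aligned to Zv10 with Novoalign 3.8, keeping 1 random placement for a read with several, technical replicates were merged with SAMtools, and the Multi-Replica Macs wrapper called fragments of 30 to 120 bp from both replicates together at a cutoff of 2. Names in the list include nodedup, which was taken to mean that duplicates were kept. Reads from repeated sequence are included through the random placement of reads with several placements. Whether blocks lie on repeated sequence was not tested, since no Zv10 sequence or annotation was used. The deposited score of each peak has no named scale, and other deposited values are positions and summit offsets. The fold enrichment, p-value and q-value columns of the deposited list hold only 0. Depth is unknown.

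Peaks were read as deposited. Flank counts used summits within 50 kb of the edges, and chromosome ends were base 1 and the end of the last peak. Order-statistic and Wilson intervals are at 95%. No test was run, since the list holds no value per replicate. The functions were tested on simulated data. Named places were, by rule, the 10 widest, 5 highest- and 5 lowest-scoring blocks and the 5 longest runs by number and span. The 5 widest blocks with no summit of another peak within 50 kb were named too. Members, limits and lists were chosen with earlier results of these data known. Scripts ran under Python 3.11.15 with numpy 2.4.6, pandas 2.3.3, matplotlib 3.10.9 and scipy 1.17.1.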

Additional observations from a re-analysis of the deposited data

Results flagged for a closer look

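Unplaced scaffolds, which entered none of the comparisons, also held peaks that met the same limits of width and score. There were 11 of them among 2512 peaks, or 0.438%, on 11 sequences, with a median width of 5710 bp and a median score of 426, and 5 scored under 300. This signal is given because it lies outside the chromosomes described, and scaffolds shorter than a block cannot hold one.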

How the results depend on the processing

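Of 141 values under alternative settings, 112 stayed within the interval of the reported value (or within 1.5 times a count), 29 moved and 0 reversed. Only differences between blocks and short peaks could count as reversed. Some values could not move, such as the median score over 12 kb under another width limit. With a width limit of 4000 bp there were 1118 blocks, and with 7500 bp there were 97. Of these 97, 20.6% adjoined another block and 17.5% lay within 0.5 Mb of an end, and their median flank count was 18. Their median score at over 6 to 8 kb was 1524, but only blocks over 7500 bp remained in that class. Only 1 of those 97 scored under 300, with 19 flanking peaks and 0% near an end. The stricter width thus removed nearly all low-scoring blocks. Without an upper score limit the median score over 12 kb was 11884 and the high-scoring flank median 16. With chromosome 4 included, that score was 2310.5 and 14.2% of blocks adjoined another. With gaps of at most 5 kb the adjoining share was 8.46%. Flank medians for all, low- and high-scoring blocks were 4, 3 and 11 within 25 kb and 16, 12 and 31 within 100 kb, which follows from the distance. Score classes under 200 and from 2000, chosen after seeing the data, gave end shares of 0.353% and 9.17%, for the low and the high class. The difference in flank medians between blocks and short peaks was 0 or 1 under all settings but the 7500 bp limit, where it was 10. With short peaks scoring at least 500, the excess of central summits was 5.19 percentage points instead of 9.80. No paired analysis was possible because there is 1 group, and leaving out a replicate was not possible as the list pools them. Unknown depth limits what can be said of blocks that were missed.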
